A study of Mus musculus with 7 samples.

Results

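The BCL2 family sets the threshold for apoptosis at the mitochondrion, and 10 of its genes were described here across 7 libraries of mouse tumors driven by mutant Egfr. They were chosen by name from 21892 listed gene symbols. 7 promote death and 3 promote survival. All 10 had a mean transcript abundance (TPM, a level normalized for transcript length and library total) of 1 or more over the libraries, as did 13997 genes in all, and no member was listed at 0 in any library.

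These tumors, labelled as lung tumor, harbor an Egfr gene lacking part of exon 19 and had been passaged subcutaneously in C57BL/6 mice, so all groups share that mutation, that site and that host strain. Vehicle was sampled at day 3, and gefitinib, an inhibitor of the EGFR kinase, was sampled after 3 and after 14 days. In the other 4 groups 14 days of gefitinib were followed by 7 days of vehicle, DC101 (an antibody against mouse VEGFR2), 4H2 (the antibody directed at PD-1) or the combination of DC101 and 4H2, all sampled at day 21. The treatment field of both vehicle groups records no treatment. Each group has 1 library, with the number of animals behind it not given in the sources used here, and no sequencing depth can be read from TPM. There is thus no replicate spread, no test was computed, and every difference below is between 2 libraries.

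In healthy cells the survival proteins BCL2, BCL-XL (encoded by Bcl2l1) and MCL1 hold the pore-forming effectors BAX and BAK in check. BH3-only proteins are the stress sensors of the family: BIM (Bcl2l11), PUMA (Bbc3), NOXA (Pmaip1), BID and BMF bind the survival proteins, and some of them also activate the effectors directly. In tumors that depend on EGFR, active ERK marks BIM protein for degradation, and FOXO transcription factors, which are held inactive by AKT, drive Bcl2l11 and Bbc3. RNA levels do not show that protein-level control, nor the short half-life of MCL1 protein.

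Promoter sequence from RefSeq on GRCm38.p6, the build of the deposited values, is shown for 3 members on which the results turn. Bcl2l11 and Bbc3 are textbook FOXO targets whose levels went opposite ways under gefitinib, and Mcl1 is the most abundant member. Each window is the 250 bases before an annotated start, on the plus strand and written 5′ to 3′, and capitals mark a match to the FOXO core GTAAACA on either strand. The Bcl2l11 window lies at chr2:128125788-128126037, just before the gene's first base. The Bbc3 window lies at chr7:16310011-16310260 and the Mcl1 window at chr3:95658471-95658720, each inside its gene and before an internal start.
Bcl2l11: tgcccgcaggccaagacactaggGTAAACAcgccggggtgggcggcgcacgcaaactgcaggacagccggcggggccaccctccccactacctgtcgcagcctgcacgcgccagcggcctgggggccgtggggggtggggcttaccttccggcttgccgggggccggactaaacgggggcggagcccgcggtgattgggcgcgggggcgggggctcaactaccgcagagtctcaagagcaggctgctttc
Bbc3: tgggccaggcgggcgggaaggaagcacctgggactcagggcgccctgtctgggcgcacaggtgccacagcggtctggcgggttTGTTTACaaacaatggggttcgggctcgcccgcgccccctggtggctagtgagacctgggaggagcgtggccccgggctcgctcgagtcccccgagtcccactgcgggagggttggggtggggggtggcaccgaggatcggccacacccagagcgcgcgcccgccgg
Mcl1: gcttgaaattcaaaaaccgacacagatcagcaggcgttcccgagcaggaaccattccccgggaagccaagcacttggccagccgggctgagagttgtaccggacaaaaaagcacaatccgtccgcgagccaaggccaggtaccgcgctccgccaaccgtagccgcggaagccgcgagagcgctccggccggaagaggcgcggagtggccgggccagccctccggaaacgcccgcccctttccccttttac

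The match in the Bcl2l11 window spans bases 227 to 221 before the start, and that in the Bbc3 window, on the minus strand, bases 167 to 161. The table lists 16 windows for 9 of the 10 members and none for Pmaip1. The FOXO core was present in 2 of the 16, and the windows shown for Bcl2l11 and Bbc3 were picked because they hold it, as 1 further window of Bcl2l11 and 2 of Bbc3 do not; it was present in 3.17% of 32851 windows of the same length across all genes. The E-box CACGTG was found in 2 member windows, one of Bbc3 and the one of Bax, against 6.02% of all windows. The STAT palindrome TTCNNNGAA was found in 0 of the 16, against 7.02% of all windows. Several genes have more than 1 window, windows of 1 gene can overlap, and a match is only a run of letters. The Bcl2l11 window has a GC content of 72% and the Mcl1 window one of 64.4%.

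Bcl2l11 was higher in both gefitinib libraries than in any other. It was at 15.3 TPM in vehicle at day 3, 27.7 and 35.9 at days 3 and 14 of gefitinib, 19.8 in vehicle at day 21, 15.6 with DC101, 20.6 with 4H2 and 16.6 with both antibodies. The 5 libraries sampled off the drug lay between 15.3 and 20.6 TPM, below both. On the scale of log2(TPM + 1), the difference from vehicle at day 3 was 0.82 at day 3 and 1.18 at day 14, and that from day 14 of gefitinib to vehicle at day 21 was -0.83. Among the differences of all genes, Bcl2l11 lay at percentile 76.7 at day 3, 80.2 at day 14 and 11.3 after withdrawal.

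The other BH3-only genes did not share 1 pattern. Pmaip1, a p53 and stress-response gene whose product binds MCL1, was at 1.6 TPM in vehicle at day 3 and at 10.6, 10.5, 8.4, 5.7, 14 and 11.2 in the remaining libraries, listed as for Bcl2l11. Its untreated level stood alone at the bottom, and it stayed above that level after gefitinib was stopped. The ratio of gefitinib day 3 to vehicle was 6.63, and rounding of the deposited TPM to 1 decimal allows 6.39 to 6.87. Bid, which links death receptors to the mitochondrion once caspase 8 has cut the protein, was at 10.1, 16.3, 23.9, 21.7, 18, 15.7 and 16.9 TPM across the same series of libraries. It too was lowest in vehicle at day 3, and did not return to that level in any later library.

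Bbc3, a p53 target like Pmaip1 and Bax, went against Bcl2l11. It was at 28, 23.2, 19.8, 42.8, 30.5, 17.1 and 18.5 TPM in this order, so both gefitinib libraries lay below vehicle at day 3 and the regrown day 21 vehicle tumor was highest. Between day 14 of gefitinib and vehicle at day 21 the difference was 1.07 on the log2(TPM + 1) scale. Bmf, whose product is released from the cytoskeleton in cells that lose attachment, was at 40, 32.9, 46.1, 33.2, 22.7, 12.1 and 17.8 TPM. Its 3 antibody libraries were the 3 lowest.

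The effectors also parted. Bax was at 63, 46.7, 45.1, 74.1, 60, 28.9 and 39.6 TPM, listed likewise, with both gefitinib libraries and both libraries that received 4H2 below the 3 others. Bak1 was at 98.7, 141.7, 130.5, 167.2, 141.7, 126.6 and 104.2 TPM, with vehicle at day 3 lowest, and its log2 span from the lowest to the highest library, 0.75, was the narrowest among the members. The Bak1 to Bax ratio of TPM was 1.57 in vehicle at day 3, 3.03 and 2.89 at days 3 and 14 of gefitinib, 2.26 in vehicle at day 21, 2.36 with DC101, 4.38 with 4H2 and 2.63 with both antibodies. Bak1 thus exceeded Bax in every library, least of all in the untreated one. In GENCODE, 25.5% of the annotated exon bases of Bak1 overlap the opposite-strand gene Ggnbp1, which was between 1.7 and 4.3 TPM here, and 17.7% of those of Bid overlap the opposite-strand gene Bcl2l13, which was between 18.8 and 33.8 TPM, against 10.1 to 23.9 for Bid itself. Bax shares 12.2% of its exon bases with the same-strand gene Gm45808, and Bcl2 6.09% with the opposite-strand gene D630008O14Rik. Neither of these partners is among the listed gene symbols. The use of strand in counting was not given in the sources used here, so reads of such pairs may be mixed. For Bax, strand could not separate them.

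Among the survival genes, Mcl1 was higher under gefitinib while Bcl2l1 was lower. Mcl1 was at 134.5 TPM in vehicle at day 3, 310.5 and 323.4 at days 3 and 14 of gefitinib, 195.2 in vehicle at day 21, 179.6 with DC101, 292.4 with 4H2 and 285.7 with both antibodies. Its 4 higher libraries were the 2 under gefitinib and the 2 that received 4H2. Bcl2l1 was at 80.1, 46.5, 56.7, 68.9, 64.4, 25.5 and 25.6 TPM, listed likewise, and formed the opposite picture, with those 4 libraries lowest. Bcl2, the founding survival gene and abundant in lymphocytes, was at 6.9, 10, 14.8, 11.4, 8.8, 11.1 and 11.4 TPM, lowest in vehicle at day 3 and highest at day 14 of gefitinib.

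**Figure D1:**
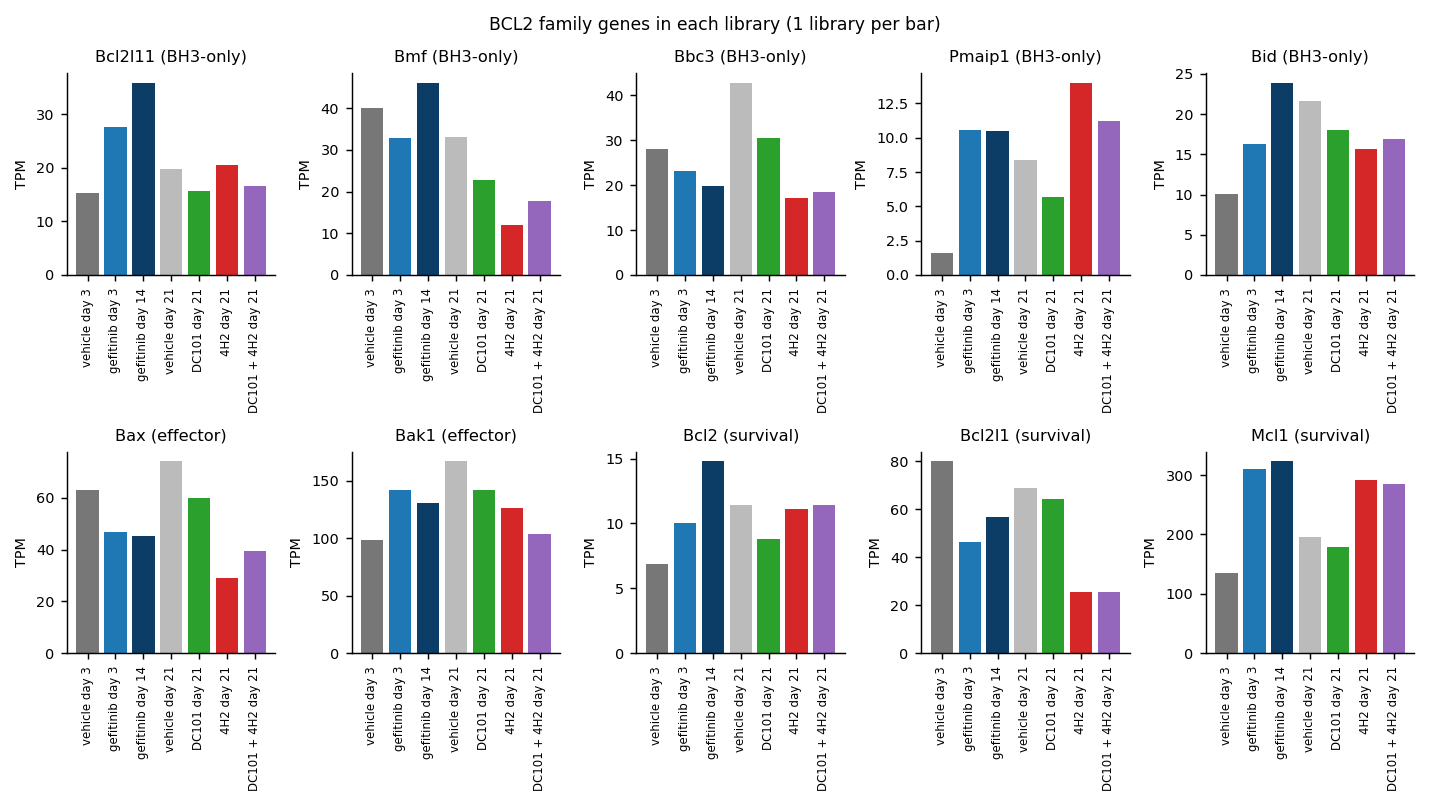
TPM of each of the 10 genes (vertical axis, from 0, with a scale of its own in each panel) in the 7 libraries, 1 bar per library. Bcl2l11 is highest at days 3 and 14 of gefitinib (27.7 and 35.9 TPM), and Bcl2l1 and Mcl1 form opposite profiles.

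The members therefore fell into 2 sets by where they were lowest, and the sets cut across death and survival. Bax, Bbc3, Bmf and Bcl2l1 were lowest with 4H2 (4 genes), and Bak1, Bcl2l11, Pmaip1, Bid, Bcl2 and Mcl1 were lowest in vehicle at day 3 (6 genes). Day 14 of gefitinib held the highest level of 5 members: Bcl2l11, Bid, Bmf, Bcl2 and Mcl1. Measured as the root mean square distance between log2(TPM + 1) profiles over the 7 libraries, each centred on its own mean, the closest pair was Bax and Bbc3 (0.15), followed by Bid and Bcl2 (0.18). The farthest pair was Pmaip1 and Bcl2l1 (1.30), and Bcl2l1 and Mcl1, both survival genes, were 0.97 apart. The members varied about as much as other genes: the log2 span from the lowest to the highest library had a median of 1.27 over the 10 members and 1.28 over the 13997 genes, and Pmaip1 had the widest span of the 10 (2.53, 80.0th percentile).

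Several marker lists differed between the same libraries. The 8 epithelial genes (Epcam, Cdh1, 4 keratins and 2 claudins) held 0.344% of all TPM in vehicle at day 3, 0.112% and 0.180% at days 3 and 14 of gefitinib, 0.728% in vehicle at day 21, 0.465% with DC101, 0.00457% with 4H2 and 0.0360% with both antibodies. Epcam was at 3 TPM with 4H2 and 20.8 with both antibodies, against 332.3 in vehicle at day 21, and the 8 markers lay between 1.3 (Cldn4) and 12.1 TPM (Krt18) in the 4H2 library. The 10 skeletal muscle genes held 0.0279% in vehicle at day 3, 0.205% and 0.322% at days 3 and 14 of gefitinib, and 0.276% in vehicle at day 21. They held 1.52% with DC101, 7.06% with 4H2 and 6.96% with both antibodies. All 10 were at least 2-fold higher at both gefitinib days than in vehicle at day 3 (medians 2.89 and 3.60). The 7 macrophage genes held 0.104% in vehicle at day 3, 0.872% and 0.964% under gefitinib and between 0.396% and 0.694% at day 21. The 7 T cell genes found in the file held 0.00200% in vehicle at day 3, 0.0248% and 0.0625% at days 3 and 14 of gefitinib, 0.0239% in vehicle at day 21, 0.0189% with DC101, 0.0571% with 4H2 and 0.0455% with both antibodies. The 6 neutrophil markers held between 0.000870% and 0.00748%. Ly6g was at 0 in every library. S100a8, S100a9 and Cxcr2 were at 0.6, 0.4 and 1 TPM in vehicle at day 3 and at 0 at day 14 of gefitinib. Csf3r was at 4 TPM in vehicle at day 3 and at 37.3 and 62.6 under gefitinib. Only Csf3r and Retnlg had a mean TPM of 1 or more, and these 2 markers were at least 2-fold higher at day 14 (median 2.75). In bulk tissue, fewer cells of a type and less RNA per cell cannot be told apart, and the part of these cell types in the values of the BCL2 family was not tested.

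At day 3 of gefitinib, relative to vehicle of the same day, Mcl1 and Pmaip1 were at least 2-fold higher, by 1.20 and 2.16 on the log2(TPM + 1) scale (2.31-fold and 6.63-fold by TPM), and no member was at least 2-fold lower. The Pmaip1 difference rests on 1.6 TPM in vehicle and was 1.24 with a pseudocount of 5. The background was 20.8% of the 13997 genes higher and 14.4% lower, so 2 of 10 higher is close to the share across all genes. Bcl2l11 was 1.81-fold higher by TPM and Bcl2l1 1.72-fold lower, both short of 2-fold. The 7 death-promoting genes had a median difference of 0.52 and the 3 survival genes one of 0.48, against -0.09 over all genes. Fibroblast markers (6 of 6 at least 2-fold higher), macrophage markers (7 of 7) and T cell markers (7 of 7) were higher in this pair of libraries, and epithelial markers lower (7 of 8).

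After 14 days of gefitinib, against the same vehicle library, 5 members were at least 2-fold higher and none lower, where the background was 22.7% of genes higher and 12.7% lower. They were the death-promoting genes Pmaip1 (6.56-fold by TPM), Bid (2.37-fold) and Bcl2l11 (2.35-fold), and the survival genes Mcl1 (2.40-fold) and Bcl2. Bcl2 lay exactly on the threshold, at a log2 difference of 1, so that rounding in the deposited values decides its call. With a pseudocount of 5 in place of 1, 3 members were called. All 7 T cell, 7 macrophage and 5 B cell markers were at least 2-fold higher beside them, with list medians of 4.58, 3.35 and 2.56. This comparison shares its vehicle library with that of day 3, and a vehicle library of day 14 was not analysed here, so that gefitinib and the later day cannot be told apart. Set directly against day 3 of gefitinib, none of the 10 members was 2-fold apart at day 14, where the background was 7.66% of genes either way. Bid (0.53), Bcl2 (0.52), Bmf (0.47) and Bcl2l11 (0.36) had the largest log2 differences.

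In the vehicle library of day 21, taken 7 days after gefitinib was stopped, Bbc3 was the single member at least 2-fold higher than at day 14 of gefitinib (2.16-fold by TPM), and no member was at least 2-fold lower. The background was 7.62% of genes higher and 7.89% lower. Bcl2l11 was 1.81-fold lower by TPM, Mcl1 1.66-fold lower and Bax 1.64-fold higher. The epithelial markers (8 of 8 at least 2-fold higher, median 1.86) and the proliferation genes (7 of 8, median 2.07) were higher in the same pair, and T cell markers lower (6 of 7, median -1.33). Withdrawal of the drug and the passing of 7 days cannot be told apart here. Against vehicle at day 3, the day 21 vehicle library had Pmaip1 (5.25-fold) and Bid (2.15-fold) at least 2-fold higher and no member lower, at a background of 15.3% higher and 3.11% lower, and Bcl2l11 at 1.29-fold.

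Relative to vehicle at day 21, DC101 left 0 members 2-fold apart, where the background was 4.24% either way. Each of the 10 members was nevertheless lower than in vehicle, by log2 differences from -0.10 (Bcl2l1) to -0.53 (Bmf), with a median of -0.31. Over all genes, 58.2% were lower in that pair and the median was -0.05. The sign held for all 10 under each scaling tried, but that outcome was close to fixed in advance. The rescalings moved the median of all genes by only 0.04 and 0.02, less than the smallest of these differences. Endothelial markers had a median of -0.62 and epithelial markers one of -0.73, and all 10 muscle markers were at least 2-fold higher.

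4H2 for 7 days, against the same vehicle library, came with 4 members at least 2-fold lower and none higher. They were Bcl2l1 (2.70-fold lower by TPM), Bmf (2.74-fold), Bax (2.56-fold) and Bbc3 (2.50-fold). The background was 20% of genes lower and 10.9% higher. Mcl1 (292.4 against 195.2 TPM) and Pmaip1 (14 against 8.4 TPM) went the other way, and Bcl2l11 was at 20.6 against 19.8 TPM. All 8 epithelial markers and all 8 proliferation genes were at least 2-fold lower in this pair, with medians of -6.73 and -3.36, and muscle markers were higher by a median of 4.76. The deposited scaling matters here: 1528 genes were higher and 2797 lower as deposited, and 2095 higher and 2189 lower under median-of-ratios scaling, which moved the median of all genes by 0.23 and left the same count of 4 members lower.

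The combination, against vehicle at day 21, came with Bcl2l1 (2.69-fold lower by TPM) and Bbc3 (2.31-fold) at least 2-fold lower and no member higher, where the background was 17% lower and 11.7% higher. Under median-of-ratios scaling 1 member was lower, Bbc3 then standing at -0.94, and the counts over all genes went from 1638 higher and 2373 lower to 2124 higher and 1767 lower, with the median of all genes moved by 0.22. Bcl2 was at 11.4 TPM in both libraries. Against 4H2 alone, the combination had no member 2-fold apart (background 5.41% either way), with Bmf (0.52) and Bax (0.44) at the largest log2 differences. Against DC101 alone, Bcl2l1 was 2.52-fold lower by TPM and no other member was 2-fold apart, at a background of 14.3% lower and 11.1% higher. The 3 day 21 antibody comparisons share 1 vehicle library, which also serves as the regrowth library.

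**Figure D2:**
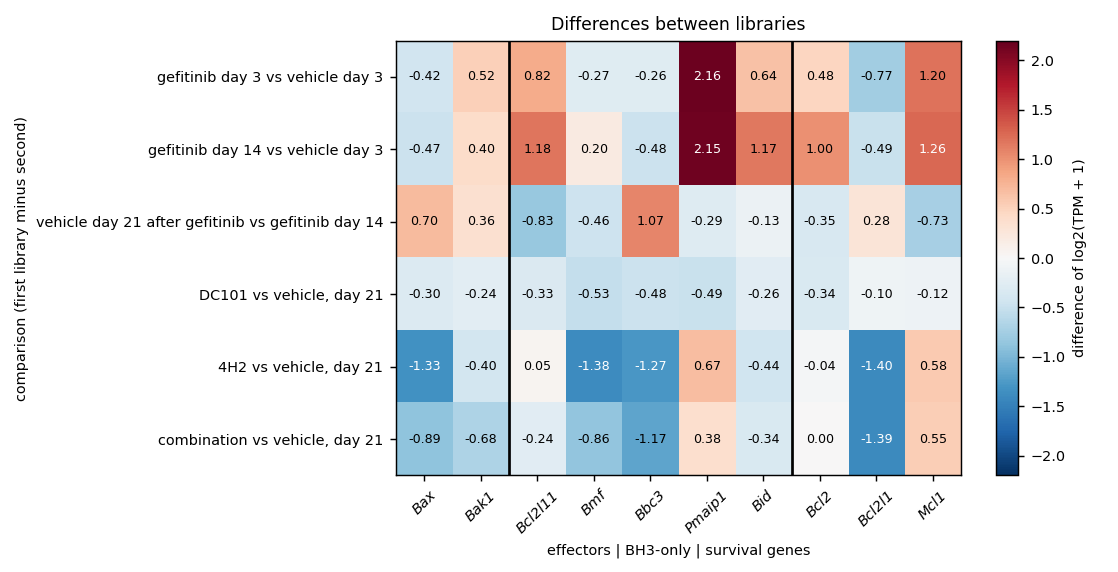
Difference of log2(TPM + 1) for each gene (columns) in the 6 main comparisons (rows), red for higher and blue for lower in the library named first, with black lines between effectors, BH3-only and survival genes. Pmaip1 stands out in both gefitinib rows (2.16 and 2.15), and Bcl2l1 is lowest in the 4H2 and combination rows (-1.40 and -1.39).

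Set as classes, summed death-promoting TPM was above summed survival TPM in 3 libraries and below it in 4. The ratio of the 7 death-promoting to the 3 survival genes was 1.16 in vehicle at day 3, 0.815 and 0.790 at days 3 and 14 of gefitinib, 1.33 in vehicle at day 21, 1.16 with DC101, 0.714 with 4H2 and 0.697 with both antibodies. Both classes were higher at day 14 of gefitinib than in vehicle at day 3, at 311.8 against 256.7 TPM for death and 394.9 against 221.5 for survival. Mcl1 dominated the survival sum: it supplied 60.7% in vehicle at day 3, 84.6% and 81.9% under gefitinib, 70.9% in vehicle at day 21, 71.0% with DC101, 88.9% with 4H2 and 88.5% with both antibodies.

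The order of the libraries depended on the most abundant members. Without the most abundant member of each class, Mcl1 and Bak1, the ratio was 1.82 in vehicle at day 3, 2.79 and 2.54 under gefitinib, 2.49 in vehicle at day 21, 2.08 with DC101, 2.96 with 4H2 and 3.26 with both antibodies, so that vehicle at day 3 went to the bottom. As a difference between class means of log2(TPM + 1), death minus survival, the libraries ran from -0.94 in vehicle at day 3 to -0.61 in vehicle at day 21, with -0.78 and -0.93 at days 3 and 14 of gefitinib. The TPM ratio of Bcl2l11 to Bcl2l1 was 0.191 in vehicle at day 3, 0.596 and 0.633 under gefitinib, 0.287 in vehicle at day 21, 0.242 with DC101, 0.808 with 4H2 and 0.648 with both antibodies. The 3 libraries with the lowest values of that ratio were also the 3 with the largest epithelial share. They were likewise the 3 with the largest proliferation share and the smallest macrophage and T cell shares. Among them, vehicle at day 3 had the lowest ratio and the smallest epithelial share. Against Mcl1 there was no comparable gain: the Mcl1 to Bcl2l11 ratio was 8.79 in vehicle at day 3 and 11.2 and 9.01 under gefitinib, and it reached 17.2 with the combination.

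**Figure D3:**
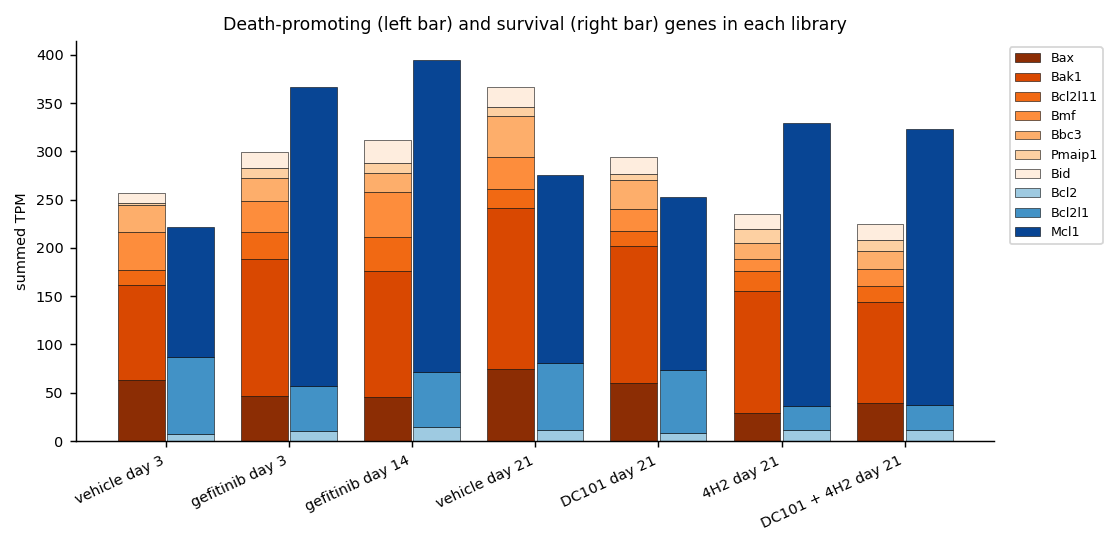
Summed TPM (vertical axis, from 0) of the 7 death-promoting genes (left bar of each pair, oranges) and the 3 survival genes (right bar, blues) in each library. The survival bar is the taller one in the 2 gefitinib libraries and in the 2 that received 4H2, and most of it is Mcl1.

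**Figure D4:**
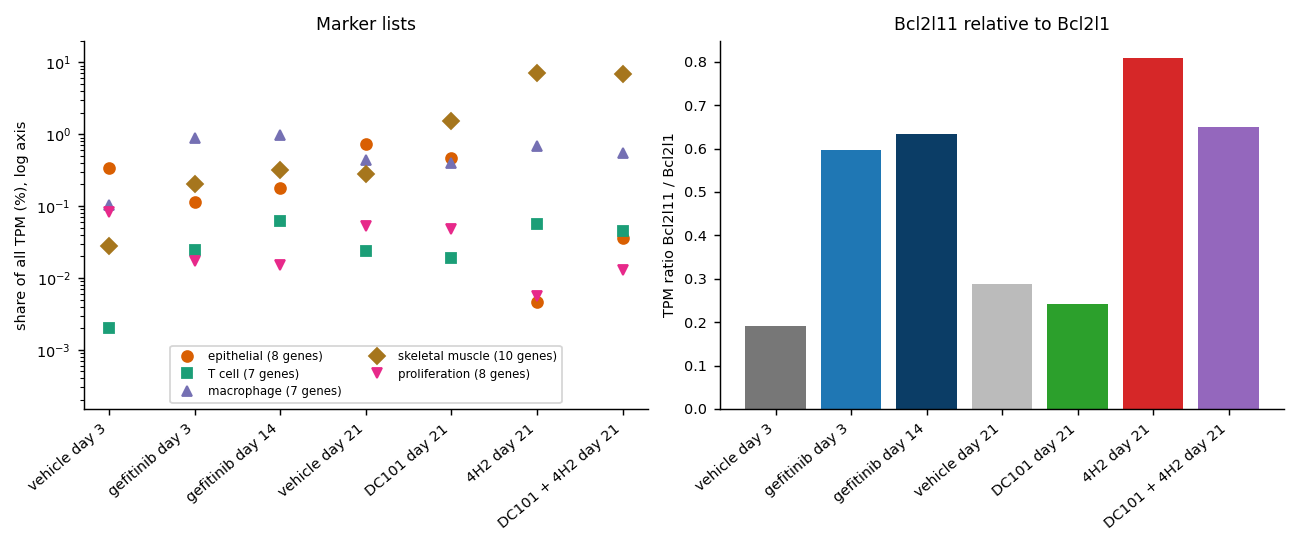
Left, share of all TPM (percent, log axis) held by 5 marker lists in each library, 1 symbol per list; right, TPM ratio of Bcl2l11 to Bcl2l1 (from 0), 1 bar per library. The ratio is lowest in vehicle at day 3, vehicle at day 21 and DC101 (0.191, 0.287 and 0.242). There the epithelial and proliferation shares are largest, and the macrophage and T cell shares smallest.

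Relatives of the 10 genes with the same functions gave a split picture. The survival genes Bcl2a1a, Bcl2a1b and Bcl2a1d, encoding A1, a survival protein of leukocytes, were at 47.9, 143.6 and 59.4 TPM at day 3 of gefitinib against 17.7, 57.4 and 19.4 in vehicle. They are near-identical copies, so the division of reads among them is uncertain. Of 4 further survival genes compared, 3 were at least 2-fold higher at day 3 and at day 14. Those 3 are these copies, so they do not count as separate observations. Over all genes, 20.8% were higher at day 3 and 22.7% at day 14. Among 4 further death-promoting genes, Bok, an effector-like member, was at 50.6 TPM in vehicle at day 3, 15.2 and 17.4 under gefitinib, 87.9 in vehicle at day 21, 74 with DC101, 5.9 with 4H2 and 12.2 with both antibodies. Bok resembled Bbc3, Bax and Bak1 in being highest in the regrown tumor. Bik, another BH3-only gene, was also highest there, at 15 TPM in vehicle at day 21 against 2 with 4H2 and 2.6 with both antibodies. Hrk was listed at 0 in every library.

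Some caspases and inhibitors of apoptosis act downstream of the mitochondrion, whereas caspase 8 and its inhibitor act before it. Of 9 genes for the apoptosome and caspases, 1 was at least 2-fold lower at day 3 and at day 14 and none higher: Casp6, an executioner caspase gene, was at 33.1 and 22 TPM against 70.9 in vehicle. Of 7 inhibitors of apoptosis, 2 were higher and 1 lower at day 3, and 4 higher and 1 lower at day 14. Over all genes, 20.8% were higher and 14.4% lower at day 3, and 22.7% higher and 12.7% lower at day 14. Birc3, an NF-kB target encoding cIAP2, was at 65.3 and 80.4 TPM against 21.2 in vehicle, and Cflar, the caspase 8 inhibitor, at 47.7 against 21.4 at day 14. Birc5 (survivin), which is made in dividing cells, was at 12.1 and 9.4 TPM against 49.4, beside proliferation genes of which 8 of 8 were at least 2-fold lower in both comparisons. With 4H2, Cycs (cytochrome c) was at 85.7 against 37.5 TPM in vehicle at day 21, next to muscle markers at 7.06% of all TPM. Of 6 death receptor genes, none was 2-fold apart under gefitinib.

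The factors that drive the BH3-only genes gave no uniform direction. Foxo3 was at 110 and 87.8 TPM at days 3 and 14 of gefitinib against 90 in vehicle, Foxo4 at 22 and 25.6 against 82.9, and Trp53 at 109.1 and 110.3 against 236.8. Of 9 such regulators 8 were compared, with 1 higher and 2 lower in each gefitinib comparison. For every list in this paragraph the background was 20.8% of genes higher and 14.4% lower at day 3. At day 14 it was 22.7% higher and 12.7% lower. Jun was the higher one, at 132.3 and 149 TPM against 55.6. FOXO target genes, read out as 12 genes, had medians of 0.00 and 0.46, with 4 higher and 1 lower each time: Bcl6 was at 39.3 and 37.5 TPM against 10 and Sesn1 at 30.3 and 27 against 8, while Cited2 was at 154.1 and 117.3 against 318.8. Of 12 p53 targets, which include the death receptor genes Fas and Tnfrsf10b, none was called 2-fold apart under gefitinib (medians -0.08 and -0.26). Trp53inp1, at 48 TPM at day 14 against 24 in vehicle, fell short of a call only through the pseudocount. The p53 targets among the 10 members went different ways. Pmaip1 was 6.63-fold and 6.56-fold higher by TPM, while Bbc3 (23.2 and 19.8 against 28 TPM) and Bax (46.7 and 45.1 against 63 TPM) were lower.

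ERK output genes read out the pathway below EGFR. Of 14 genes, 8 lay at least 2-fold below vehicle and 0 above it at day 3 (median -1.13). At day 14, 8 were lower and 2 higher (median -1.22). Epithelial markers had medians of -1.65 and -0.80 in the same pairs. The background was 14.4% of genes lower and 20.8% higher at day 3, and 12.7% lower and 22.7% higher at day 14. Dusp6, a phosphatase gene induced by ERK, was at 114 and 125.5 TPM against 296.1 in vehicle, and at 338 in vehicle at day 21. Among genes for turnover of BIM and MCL1 protein, Rps6ka1, encoding the RSK1 kinase downstream of ERK, was at 111.3 and 135.1 TPM against 54.

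For each member, the 5 genes with the nearest profile were taken from all genes whose mean TPM reached 10, by the distance defined above over the 7 libraries. Bcl2l11 was closest to Notch2 (0.08), Ifnar2 (0.09), Vav2 (0.09), Sgsh (0.11) and Dapp1 (0.11). Notch2, a receptor gene of the Notch pathway, was at 78.5 TPM in vehicle at day 3 and at 150.2 and 175.7 at days 3 and 14 of gefitinib. Mcl1 was closest to Tep1 (0.05), Gna12 (0.07), Ids (0.07), Acp2 (0.07) and Jak2 (0.07). Jak2, a cytokine receptor kinase gene, was at 12.6, 26.4 and 31.4 TPM in the same 3 libraries. Bcl2l1 was closest to Usp6nl (0.05), and Bax to Snap47 (0.05). Pmaip1 was closest to Pdgfb (0.09), Meis3 (0.14) and Runx2 (0.14), and Bmf had the least close neighbour, Abhd14b at 0.18. A short distance over 7 libraries is a description and comes from a search over all those genes.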

How the data were processed

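RNA of 7 tumor groups was profiled with 1 library each. Per the labels' protocols, directional libraries were made from rRNA-depleted RNA of frozen tissue. The authors deposited TPM values, normalized per transcript length to 1000000 per library and rounded to 1 decimal. Per the submitters' processing notes, reads were processed on GRCm38.p6, with aligner, counter and annotation not given in the sources used here. Depth cannot be read from TPM, so no counting interval was given.

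Differences were computed as log2((TPM + 1) / (TPM + 1)) in python 3.11.15 (pandas 2.3.3, numpy 2.4.6) for 13997 genes whose mean TPM reached 1, and called at 2-fold. There were 6 main and 4 secondary comparisons. Calls were tested on simulated data. These held no noise, and genes were changed by set folds on the same scale, so the outcome follows from arithmetic. That test checks the code and says nothing on the spread between tumors. With 1 library per group no p-value was computed. The members and the gene lists were chosen with earlier results of these data known. All 10 members were named in every library; from each other list, up to 4 genes at least 2-fold apart per comparison could be named, and any other gene, such as Foxo3 or single markers, was chosen after its values were seen. Alternatives were other pseudocounts, filters and scalings.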

Additional observations from a re-analysis of the deposited data

How the results depend on the processing

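The counts of members called in the 6 main comparisons were the same under a pseudocount of 0.1 and a rescaling without muscle genes and the 20 most abundant genes. No filter and a filter at a mean TPM of 5 could not change these counts. All 10 members pass both (lowest mean 8.86 TPM, Pmaip1), and a filter leaves their differences as they are. With a pseudocount of 5, members higher at day 14 of gefitinib went from 5 to 3 (Bid at 0.94 and Bcl2 at 0.73), Pmaip1 stayed called at 1.24 and 1.23 at days 3 and 14 where it had been at 2.16 and 2.15, and members higher in vehicle at day 21 against day 14 from 1 to 0 (Bbc3 at 0.95), as a larger pseudocount shrinks differences of low genes. Median-of-ratios scaling over 7340 genes took members lower with the combination from 2 to 1. No member called in a main comparison changed direction, but these alternatives could not have reversed one. Pseudocounts and filters keep the sign, and the rescalings moved the median of all genes by far less than the difference of 1 that a call needs. Bcl2, not called with 4H2 (-0.04) or the combination (0.00), stood at 0.20 and 0.22 under median-of-ratios scaling. The rescaling without muscle genes moved the median of all genes by 0.11 at day 14 of gefitinib and 0.13 with 4H2. No paired analysis was possible because each group has 1 library. The lack of replicates, the unknown depth and the different tissue makeup of the libraries limit every difference.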
